A study of Bos taurus with 3 samples.

Results

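Chemokines are small secreted proteins that guide moving cells along gradients, and they act through receptors that span the membrane and signal through G proteins. Their names follow the spacing of the first cysteines, so that CXC and CC chemokines form separate families. IL6, interleukin 6, is an inflammatory cytokine often made by the same stromal and epithelial cells that make chemokines. In the developing gonad of the mouse the chemokine CXCL12 guides primordial germ cells to the gonadal ridge. The genes described here are the chemokines CXCL12, CXCL10, CXCL2, CXCL5, CXCL8, CXCL16, CCL2 and CCL20, the atypical chemokine receptor ACKR3, and IL6, which makes 10 genes of the 9155 with a named probe set. They were chosen by their symbols, with the differences between GREL cells and fibroblasts on these arrays already known. The 10 genes were read by 12 of 24016 probe sets, and where a gene had several the one with the highest mean over the 3 arrays stood for it.

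The cells of interest were Gonadal Ridge Epithelial-Like (GREL) cells, polygonal cells grown from digested bovine fetal ovaries at 130 days of gestation by the labels, as 2 isolates that the paper describes as clonally enriched (it gives a slightly younger age for one of them). They were set against 1 culture of fibroblastic cells, taken from the stroma of the medulla in an ovary of an adult over 1 year old. Neither group was treated, all 3 cultures were Bos taurus cells grown in medium with fetal calf serum, and each was read on 1 Affymetrix GeneChip Bovine Genome Array. The series' design text names fetal ovaries as the source of both cell types, whereas the sample labels and the methods give an adult ovary for the fibroblasts, and the labels were followed. Cell type, fetal or adult age, ovarian region and animal therefore cannot be told apart in this comparison, and with a single fibroblast array the spread between fibroblast cultures was not measured.

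Values are the deposited log2 expression values, rounded to steps of 0.1. The table holds no detection calls, so a background level was taken on each array as the 95th percentile of 71 genes of other organs, which was 7.35 for GREL isolate 1, 7.10 for GREL isolate 2 and 7.15 for the fibroblasts. A few bright probe sets, among them POMC and APOA1, raise it, and a lower level, their 90th percentile, was 5.4, 5.3 and 5.5 in the same order. A gene below the background level is thus not shown to be unexpressed, but the size of its difference is uncertain. Of 7 markers of GREL cells and simple epithelium, 6 were higher in both isolates, 3 of them over 3-fold. These 3 (KRT19, KRT7 and PKP2) stand in the paper's list of genes raised in GREL cells. That list was drawn from these same arrays, so they are no independent check of identity. KRT19 read 11.3 and 11.6 in the GREL isolates, against 7.1 in the fibroblasts, and KRT18 read 11.4 and 11.8, against 10.4. KRT8 and KRT7 lay at 2.9 to 4.9 in the isolates and at 2.1 and 2.3 in the fibroblasts. PKP2, a desmosomal protein, read 6.4 and 6.0, against 3.3. EPCAM, at 3.9 in isolate 1 and 1.5 in isolate 2, against 1.0, was 5.28-fold apart between the isolates. CDH1, E-cadherin, went both ways, at 4.7 and 3.2, against 3.6. Of 7 markers of fibroblasts and stroma, 6 were lower in both isolates, 2 of them over 3-fold, TCF21 at 3.4 and 3.2, against 7.4, and PDGFRA at 6.1 and 5.5, against 8.3. THY1 was dim, at 4.9 and 3.4, against 4.3. The collagen genes COL1A1, COL1A2 and COL3A1 and the proteoglycan gene DCN lay at 7.4 to 11.5 in the isolates and at 9.7 to 12.0 in the fibroblasts, so these 4 of the 7 were bright in all 3 cultures. All 11 measured leukocyte markers, PTPRC and CD14 among them, lay at 0.9 to 2.8 in the isolates and at 1.0 to 2.6 in the fibroblasts, below the lower level on each array, with sums of 18.6 and 22.2 in the isolates and 19.8 in the fibroblasts. The 6 measured endothelial markers lay at 1.3 to 2.6 in the isolates and at 1.5 to 3.0 in the fibroblasts. Of 7 granulosa cell markers none was over 3-fold apart in both isolates, and 6 lay below the lower level on each array. The other, INHBA, lay above the lower level on each array, at 7.3 and 6.5 in the isolates, against 6.4 in the fibroblasts. FOXL2, chosen after its values were seen, read 1.9 and 2.0, against 1.8. The paper found FOXL2 protein in GREL cells of tissue sections. Of 2 measured germ cell markers, POU5F1 read 2.3 and 2.5, against 2.4. KIT was over 3-fold lower in both isolates, at 1.5 and 2.7, against 5.7. In RNA from a whole culture, fewer cells that make a transcript and less transcript per cell cannot be told apart.

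The 10 genes did not move as a block. CXCL10, ACKR3 and CCL2 exceeded the fibroblasts over 3-fold in both GREL isolates, IL6 and CXCL12 were over 3-fold lower in both, and the other 5 lay between. Where the higher group also had to lie above the background level, only CXCL10 and ACKR3 of these 5 remained. Over all genes, 2.38% were over 3-fold higher in both isolates and 2.38% were over 3-fold lower. Since the 10 genes were chosen with this contrast known, their counts and differences are given as a description without a test, and nothing is read from their share. The median log2 difference of the 10, GREL mean minus fibroblasts, was 0.48, against 0.05 over all genes. Only CXCL5 lay above the background level in all 3 cultures. CXCL10 and ACKR3 lay above it in both isolates alone, CXCL16 in isolate 1 and the fibroblasts, and the other 6 in no culture.

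**Figure D1:**
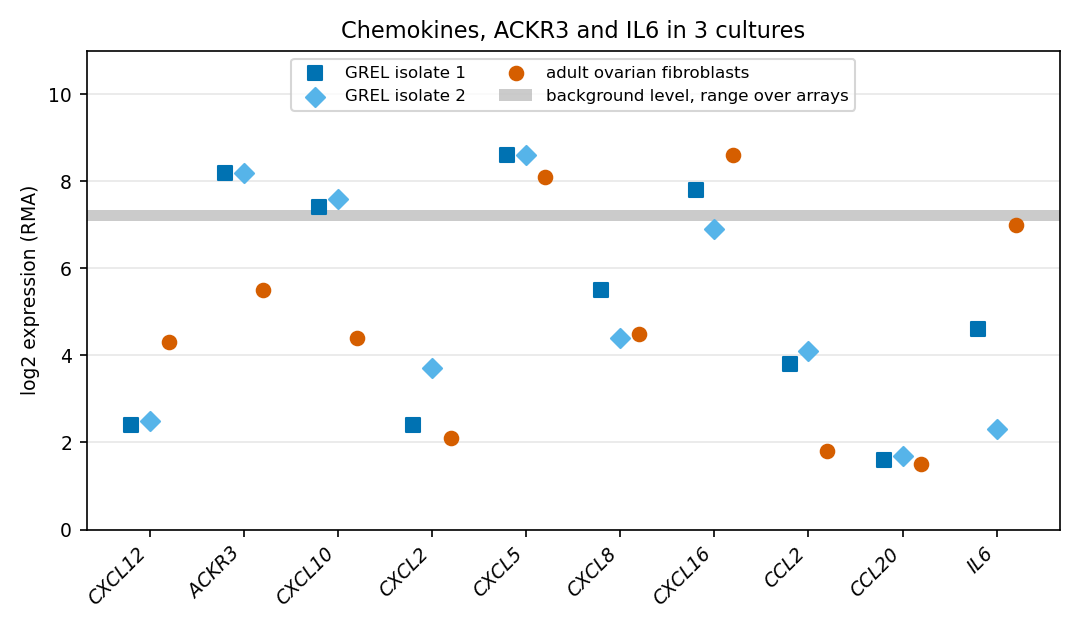
Log2 expression (vertical axis, RMA values) of the 10 genes (horizontal axis) in GREL isolate 1 (squares), GREL isolate 2 (diamonds) and adult ovarian fibroblasts (circles), 1 array per culture, with the range of the background level over the arrays as a grey band. CXCL10 and ACKR3 lie above the band in both isolates and below it in the fibroblasts, whereas IL6 is highest in the fibroblasts at 7.0.

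CXCL12 binds the signalling receptor CXCR4 and the atypical receptor ACKR3, which internalizes the ligand and in this way lowers its amount outside the cell. The ligand and the atypical receptor lay in opposite directions here. CXCL12 read 2.4 and 2.5 in GREL isolates 1 and 2, against 4.3 in the fibroblasts. The isolates lay close together and the fibroblasts above both, but all 3 values were below the lower level. The difference was -1.85 ± 0.07 (SD of the 2 isolates), or 3.73-fold and 3.48-fold lower.

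ACKR3, which also binds CXCL11, read 8.2 in both GREL isolates, against 5.5 in the fibroblasts. The fibroblast value was at the lower level and below the background level. ACKR3 was 6.50-fold higher in each isolate, a difference of 2.70, with equal values in the isolates after rounding. The paper lists this gene, as CXCR7, among those raised in GREL cells on these arrays. Its folds there differ slightly between the isolates. CXCR4, the other receptor of CXCL12, read 1.8 and 1.5 in the isolates and 1.2 in the fibroblasts, so no culture gave a CXCR4 signal near the background level. Its difference of 0.45 had an adjusted p = 0.392 in limma.

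CXCL10 attracts T cells through the receptor CXCR3 and is a classical target of interferon. It read 7.4 and 7.6 in the GREL isolates, against 4.4 in the fibroblasts. Both isolates were just above the background level and the fibroblasts well below it. The difference was 3.10 ± 0.14 (SD of the 2 isolates), 8.0-fold in isolate 1 and 9.19-fold in isolate 2, against a fibroblast value below the lower level. CXCL11, the neighbouring gene and a ligand of the same receptor, read 2.4 and 3.7 in the isolates and 2.3 in the fibroblasts. Isolate 2 stood apart there, while isolate 1 and the fibroblasts lay within 0.10 of each other. CXCR3 itself read 2.3 in both isolates and 2.0 in the fibroblasts, far below the background level.

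Of 10 measured genes of the interferon inputs to CXCL10, 7 were lower in both isolates and 2, IRF8 and MAVS, were higher by 0.30 in each, with a median difference of -0.40. Limma called 0 of the 10, and 7 of them were below the lower level in every culture. By any amount, 33.5% of all genes were lower in both isolates and 41.6% were higher. The list was chosen with earlier results of these data known, so nothing is read from its share. IRF9, the DNA-binding subunit of the complex that interferon activates, was the only one over 3-fold apart. It was chosen after its values were seen, and read 3.3 and 3.1 in the isolates against 5.2 in the fibroblasts (difference -2.0, standard error 0.14, adjusted p = 0.184 in limma). These IRF9 values were below the lower level in every culture. IFNGR2, a chain of the interferon gamma receptor, read 7.6 and 7.3 in the isolates, against 7.9 in the fibroblasts. A dim IFNGR2 probe set lay the other way, at 1.8 and 1.7, against 1.5. IRF3, a transcription factor activated by viral nucleic acid, read 6.8 and 7.3, against 7.4.

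**Figure D2:**
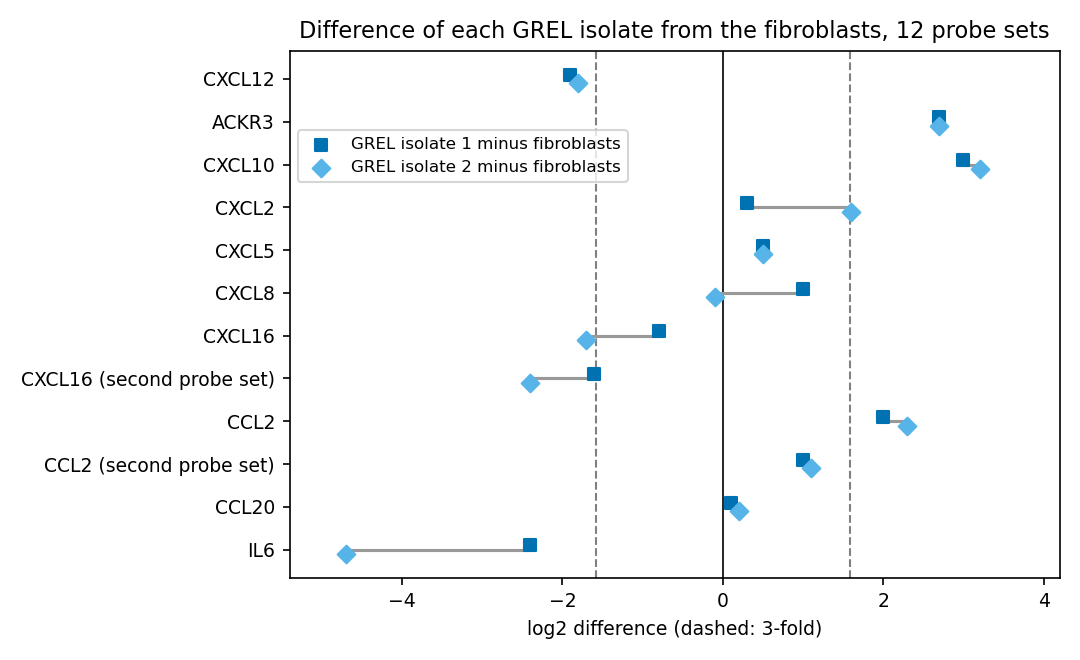
Log2 difference from the fibroblasts (horizontal axis) of GREL isolate 1 (squares) and GREL isolate 2 (diamonds) for all 12 probe sets of the 10 genes (vertical axis), with dashed lines at 3-fold and a bar joining the isolates. Both isolates lie beyond 3-fold for CXCL10, ACKR3, CCL2, CXCL12 and IL6, and for the second probe set of CXCL16. Both differences of a probe set share the 1 fibroblast array.

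CXCL2, CXCL5 and CXCL8 belong to the CXC chemokines that attract neutrophils through CXCR1 and CXCR2, and they lie in 1 gene cluster. In the order of the current assembly (ARS-UCD2.0), the measured protein-coding genes of the cluster are CXCL8, CXCL5, PF4, CXCL2, CXCL3 and GRO1, the bovine CXCL1. CXCL5 was bright in every culture, at 8.6 in both GREL isolates and 8.1 in the fibroblasts, a 1.41-fold difference. CXCL8 read 5.5 and 4.4 in the isolates, against 4.5 in the fibroblasts, so isolate 2 lay within 0.10 of the fibroblasts and isolate 1 was 2.0-fold higher. CXCL2 read 2.4 and 3.7 in the isolates, against 2.1 in the fibroblasts. Isolate 2 was 3.03-fold above the fibroblasts and isolate 1 1.23-fold, all at dim values.

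GRO1, which is not among the 10 genes, had 4 probe sets, and both isolates were over 3-fold above the fibroblasts in each. Its probe set of highest mean read 6.5 and 6.8 in the GREL isolates, against 4.4 in the fibroblasts (difference 2.25, standard error 0.21, adjusted p = 0.191 in limma). A further GRO1 probe set read 6.0 in both isolates and 2.6 in the fibroblasts, and the remaining pair read 3.3 to 3.6 in the isolates and 1.1 in the fibroblasts. GRO1 is named here after its values were seen, as the only 1 of 20 other chemokine ligands over 3-fold apart. CXCL3, next to it, read 2.0 and 1.6 in the isolates and 1.7 in the fibroblasts, and PF4 lay at 1.8 and 1.7, against 1.7. The cluster thus held a bright gene with nearly level values, a gene higher in both isolates and genes that were dim throughout. CXCL2, CXCL3 and GRO1 are close relatives in sequence, and whether their probes also take up each other's transcripts was not tested.

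**Figure D3:**
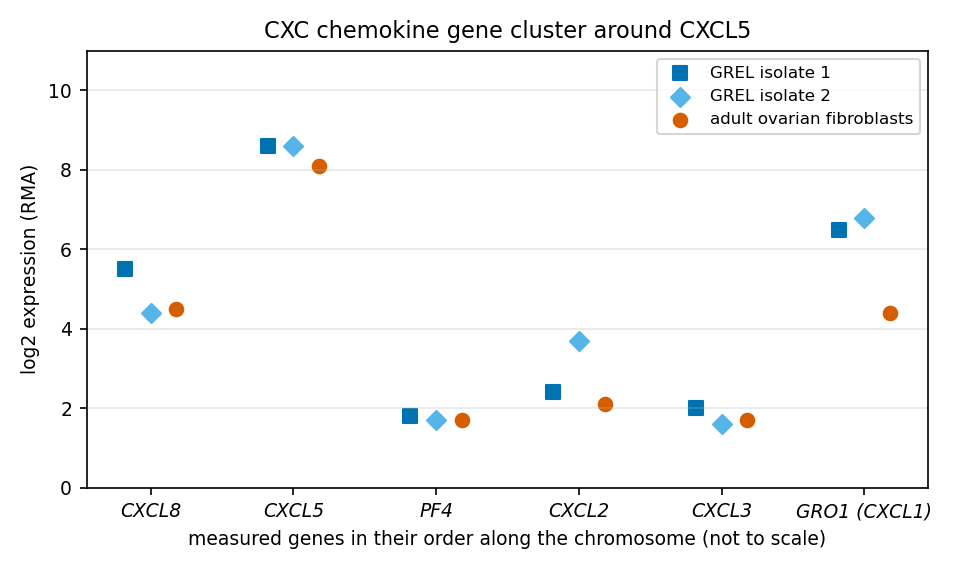
Log2 expression (vertical axis, RMA values) of 6 measured genes of the CXC chemokine cluster in their order along the chromosome (horizontal axis, not to scale) in GREL isolates 1 (squares) and 2 (diamonds) and in fibroblasts (circles). Values are to be compared between cultures within a gene: GRO1 is higher in both isolates, at 6.5 and 6.8 against 4.4, and CXCL5 differs by 0.50.

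CXCL16 is made as a membrane protein that metalloproteases can cut free, and its receptor is CXCR6. It read 7.8 and 6.9 in the GREL isolates, against 8.6 in the fibroblasts. Both isolates were below the fibroblasts, by 1.74-fold in isolate 1 and 3.25-fold in isolate 2 (difference -1.25 ± 0.64, SD of the 2 isolates). A second, dimmer probe set of CXCL16 read 5.8 and 5.0, against 7.4, so it lay in the same direction with a larger difference of -2.0, which is over 3-fold in both isolates. ADAM10, a protease that releases CXCL16, read 7.1 and 7.3 in the isolates and 6.5 in the fibroblasts (difference 0.70, standard error 0.14, adjusted p = 0.261 in limma). CXCR6 read 1.5 and 1.2 in the isolates and 1.3 in the fibroblasts.

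CCL2 attracts monocytes through CCR2, and CCL20 attracts lymphocytes and dendritic cells through CCR6. CCL2 read 3.8 and 4.1 in the GREL isolates, against 1.8 in the fibroblasts, at its brighter probe set. The isolates were 4.0-fold and 4.92-fold higher (difference 2.15 ± 0.21, SD of the 2 isolates), below the lower level in every culture. The other CCL2 probe set read 2.4 and 2.5, against 1.4, a difference of 1.05, so the direction was shared at a smaller size. With the mean over both probe sets the difference was 1.60 and no longer over 3-fold in both isolates. The suffix of the brighter probe set (_s_at) marks, in Affymetrix naming, probes that more than 1 transcript can share. CCL8 and CCL11, neighbours of CCL2 on 1 side, lay at 1.4 to 1.7 in the isolates and at 1.5 and 1.7 in the fibroblasts. CCL20 read 1.6 and 1.7 in the isolates and 1.5 in the fibroblasts, which is dim and within 0.20.

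IL6 read 4.6 in GREL isolate 1 and 2.3 in isolate 2, against 7.0 in the fibroblasts. The fibroblast value was highest and just below the background level, and the isolates differed from each other by nearly as much as isolate 1 did from the fibroblasts. IL6 was 5.28-fold lower in isolate 1 and 26.0-fold lower in isolate 2 (difference -3.55 ± 1.63, SD of the 2 isolates). All 3 values were below the background level, so these folds are uncertain. Without isolate 1 the difference was -4.70 and without isolate 2 it was -2.40. IL6 had the widest gap between the isolates among the 10 genes.

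Of the IL6 family and its receptors 4 other genes were measured, and 3 of these were dim. IL6R, the receptor chain that binds IL6, read 1.9 and 2.2 in the GREL isolates and 2.3 in the fibroblasts. OSMR, the receptor chain of the related cytokine oncostatin M, was chosen after its values were seen. It read 6.8 in isolate 1 and 4.3 in isolate 2, against 6.2 in the fibroblasts. Isolate 1 was thus near the fibroblasts and isolate 2 below both, as in 2 further probe sets of OSMR, which read 6.4 and 6.0 in isolate 1, 4.3 and 3.7 in isolate 2, and 6.4 and 5.7 in the fibroblasts. Among 9155 genes, OSMR ranked 8 and IL6 ranked 11 by the size of the gap between the isolates.

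Of 9 measured genes of the JAK-STAT pathway, which carries the IL6 signal inside the cell, 8 were lower in both isolates, against 33.5% of all genes, with a median difference of -0.55. None was over 3-fold lower in both, limma called 0 of the 9, and 4 of them were below the lower level in every culture. The 9 hold 5 inhibitors of cytokine signalling (SOCS2, SOCS3, CISH, PIAS1 and PIAS3) as well as genes that pass the signal on. They too were chosen with earlier results of these data known, so nothing is read from their share. STAT3, the transcription factor that the IL6 receptor activates, read 7.4 and 7.2 in the GREL isolates, against 8.2 in the fibroblasts (difference -0.90, standard error 0.14, adjusted p = 0.227 in limma). A dim STAT3 probe set read 3.5 and 3.8, against 3.8, so isolate 2 equalled the fibroblasts there. JAK1, a kinase bound to the receptor, read 7.8 and 7.3, against 8.1, and CEBPD, a transcription factor that STAT3 induces, 9.1 and 9.0, against 9.6. SOCS3, a feedback inhibitor of the pathway, was dim, at 2.0 and 1.5 in the isolates and 2.3 in the fibroblasts.

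NF-kappaB is a transcription factor through which IL1, TNF and toll-like receptors switch on IL6 and many chemokines. Of 16 measured genes of NF-kappaB and its regulators, 1 exceeded the fibroblasts over 3-fold in both isolates and 1 lay over 3-fold below them, with a median difference of 0.08. Both were chosen after their values were seen, and both are inhibitors of the pathway. NFKBIA, which holds NF-kappaB in the cytoplasm and is itself induced by it, read 6.8 and 6.1 in the isolates, against 4.5 in the fibroblasts. TNIP1, a partner of the deubiquitinase A20, read 4.4 and 4.1, against 6.8. Its dimmer probe sets read 2.0 to 2.5 in the isolates, against 3.7 and 3.6. They were also lower in both isolates, but neither was over 3-fold lower in both. The DNA-binding subunits RELA and NFKB1, also chosen after their values were seen, differed by at most 0.10 between any isolate and the fibroblasts. NFKB2, a further subunit, was dim, at 2.3 and 1.6, against 2.5. NFKBIZ read 7.9 and 7.7 in the isolates, against 7.5 in the fibroblasts, above the background level in every culture. A dimmer NFKBIZ probe set read 3.5 in every culture. IRAK4 read 6.9 and 6.8 in the isolates, against 7.3 in the fibroblasts, above the background level in the fibroblasts alone.

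Among 16 genes of the inputs from IL1, TNF and toll-like receptors, HMGB1 was over 3-fold higher in both isolates and IL18 and IL1R1 were over 3-fold lower, with a median difference of -0.12. HMGB1, a chromatin protein that acts as an alarm signal outside the cell, read 9.4 and 9.6 in the GREL isolates, against 7.8 in the fibroblasts. Its other probe set read 8.7 and 9.4, against 7.4, which is under 3-fold in isolate 1. IL18, a cytokine of the IL1 family, read 6.9 and 7.4, against 9.3. TNFRSF1A, the main TNF receptor, read 7.6 and 7.5, against 8.7 (difference -1.15, standard error 0.08, adjusted p = 0.182 in limma). IL1R1, the IL1 receptor, was chosen after its values were seen and read 3.3 and 2.7, against 5.0, below the lower level in every culture. The ligands IL1A, IL1B and TNF themselves lay at 1.8 to 2.4 in the isolates and at 1.6 to 2.1 in the fibroblasts.

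Many chemokine and cytokine messages, IL6 among them, are short-lived because proteins such as ZFP36 bind their AU-rich ends. ZFP36, chosen after its values were seen, was the only 1 of 6 measured genes of this kind over 3-fold apart. It read 4.5 and 3.8 in the GREL isolates, against 7.1 in the fibroblasts (difference -2.95, standard error 0.49, adjusted p = 0.227 in limma). Its relatives ZFP36L1 and ZFP36L2 lay 0.30 to 0.50 below the fibroblasts at their probe sets of highest mean. A second bright ZFP36L1 probe set read 9.4 and 8.8 in the isolates, against 9.7. The dim probe sets of both genes lay within 0.2 of the fibroblasts. HNRNPD, which can speed such decay, read 9.1 and 9.2, against 7.8, and ELAVL1, which binds and stabilizes such messages, 7.8 and 8.0, against 7.2.

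Of all 133 measured genes of the 11 pathway lists that are not among the 10, 4 (3.01%) were over 3-fold higher in both isolates and 11 (8.27%) were over 3-fold lower, against 2.38% of all genes in each direction. Their median difference was -0.15. The share that was higher was near that of all genes. The lists, like the 10 genes, were chosen with earlier results of these data known, so nothing is read from their shares. No difference passed the test: limma, with Benjamini-Hochberg adjustment over 24016 probe sets, called 0 of the 133 and 0% of all probe sets in either direction. At an unadjusted p under 0.05 it gave 12 of the 133 higher and 27 lower, and the smallest adjusted p was 0.182. Of all 24016 probe sets, limma gave 2354 higher and 2666 lower at the same unadjusted p. The spread in that fit comes from the 2 isolates, with 1 residual degree of freedom. With a robust prior, limma called 571 probe sets higher and 618 lower, among them 1 of the 133 higher (CCN2) and 5 lower (GRK5, PIAS1, IFNAR2, ZFP36L2 and IL15), all 6 with equal rounded values in the isolates and the smallest adjusted p of these at 0.0452. All 11 measured chemokine receptors other than ACKR3 lay at 1.0 to 2.3 in the isolates and at 1.0 to 2.0 in the fibroblasts, below the lower level. Of these 12 receptors ACKR3 alone lay above the background level in any culture. CXCR2, CCR2 and CCR6 were not analysed here.

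**Figure D4:**
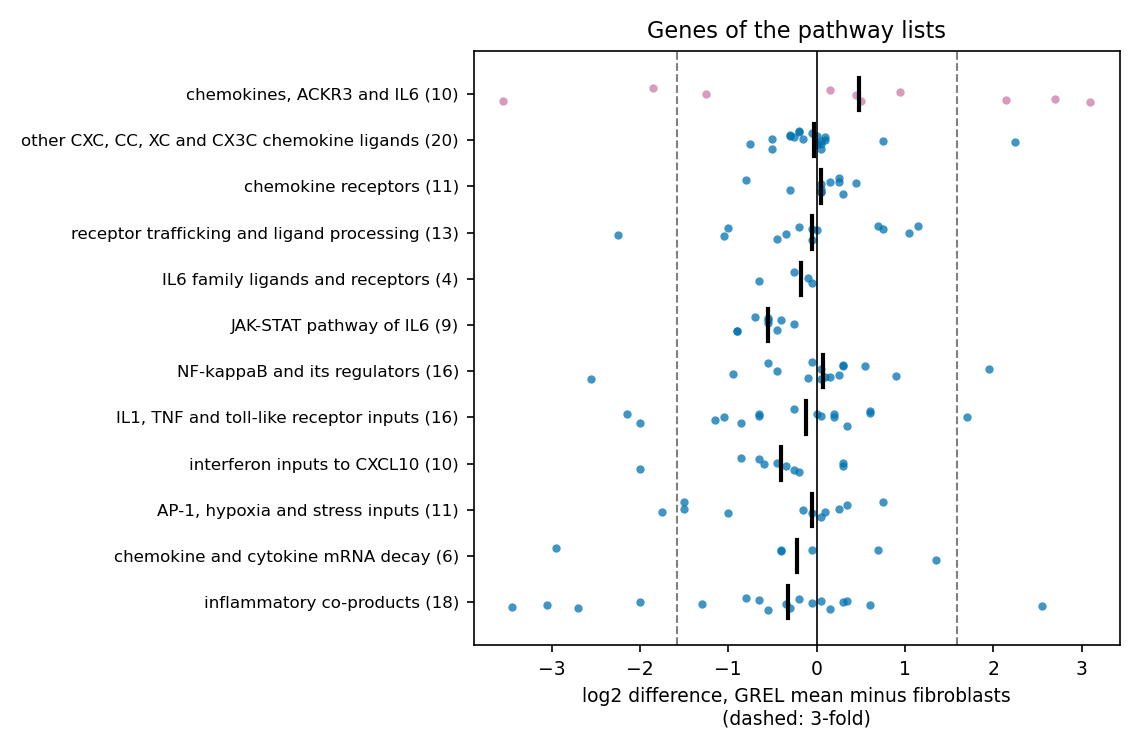
Mean log2 difference of the 2 GREL isolates from the fibroblasts (horizontal axis, dashed lines at 3-fold) for each measured gene (points) of the 10 genes and of 11 pathway lists (vertical axis, number of genes in brackets), with the median as a vertical bar. The 10 genes spread between -3.55 and 3.10, while the 20 other chemokine ligands and the 11 other receptors have medians of -0.02 and 0.05.

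The 2 isolates can also be set against each other, a comparison that does not use the fibroblast array and has 1 array a side, so no test. Of the 10 genes, 3 were over 2-fold apart between the isolates, against 2.3% of all genes. They were IL6, 4.92-fold higher in isolate 1, CXCL8, 2.14-fold higher in isolate 1, and CXCL2, 2.46-fold higher in isolate 2. Of these only IL6 was over 3-fold apart, and 0.328% of all genes were over 3-fold higher in isolate 1 and 0.175% in isolate 2. CXCL16 was 1.87-fold higher in isolate 1, and CXCL12, CXCL10, CCL2 and CCL20 lay at most 0.30 apart. ACKR3 and CXCL5 read the same in both at the rounded values. Over all genes the median gap was 0.20 and the 90th percentile 0.60. All 3 genes over 2-fold apart were below the background level in both isolates.

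**Figure D5:**
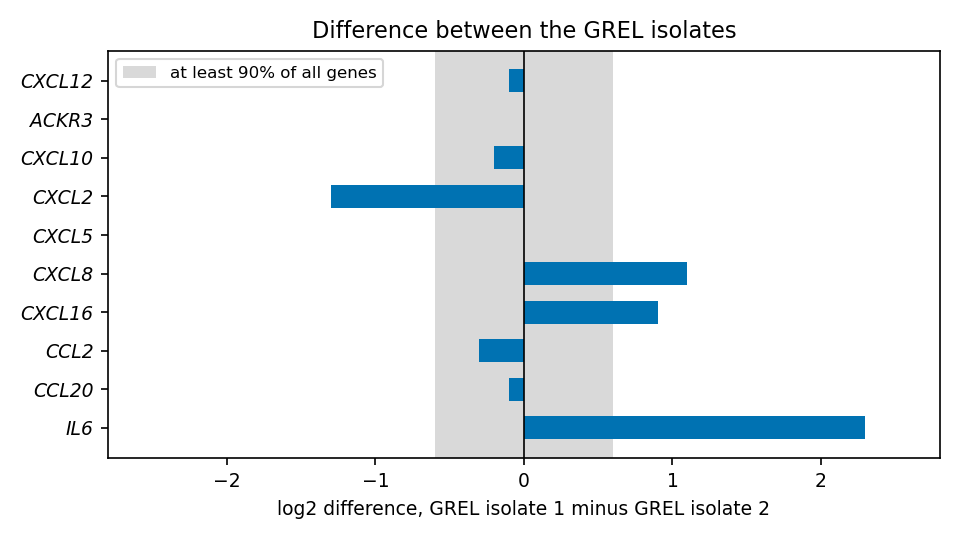
Log2 difference between GREL isolate 1 and GREL isolate 2 (horizontal axis, bars, positive where isolate 1 is higher) for the 10 genes (vertical axis), with the range that holds at least 90% of all genes in grey. IL6 (2.30), CXCL8 (1.10), CXCL16 (0.90) and CXCL2 (-1.30) reach beyond this range of 0.60 either way.

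Genes with the most similar pattern over the 3 arrays were sought among genes above the background level, by the largest deviation between mean-centred log2 values, for the 3 members with the largest differences. For CXCL10 they were ANXA3 (largest deviation 0.13), a calcium-dependent phospholipid-binding protein, and ACKR3 itself (0.27). For ACKR3 they were CDC42EP3 (0.10), an effector of CDC42, and NHERF1 (0.13), an apical scaffold protein. For IL6 they were the matrix protein SPON1 (0.37), at 5.4 and 3.5 in the GREL isolates and 7.5 in the fibroblasts, and TMEM119 (0.50), at 5.9 and 4.4 against 8.4. Both were lower in isolate 2 than in isolate 1, which the choice by likeness to IL6 entails, and a likeness over 3 arrays is a description only.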

How the data were processed

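Total RNA from 3 cultures was hybridized to 1 array each. The authors deposited log2 values, rounded to steps of 0.1, from RMA with background subtraction and quantile normalization. The submitters' processing notes name Partek 6.5. The table holds 24128 probe sets, of which 112 array controls were left out, and 0 columns were unused. The platform annotation gave 13292 probe sets 1 symbol, 86 several and 10638 none here, and 13263 matched the current bovine gene table (RefSeq, ARS-UCD2.0), used for synonyms and gene order only. A genome build for the files is not given in the sources used here, so no coordinates are printed, and no sequences were at hand.

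The comparison of GREL isolates with fibroblasts used limma 3.58.1 (R 4.3.3; lmFit, eBayes, Benjamini-Hochberg adjusted p under 0.05) and assumes that fibroblast cultures would vary as the isolates do. Rounding leaves 3513 probe sets with equal values in the isolates, which gives a variance of 0 and a weak prior (0.55 degrees of freedom). An absence of calls therefore does not show that genes were alike. The fit was run on simulated data with a common spread for all probe sets, unlike the real values. The check was that it returned the mean differences put in, so it does not bear on the calls. Other steps used Python 3.11.15 (pandas 2.3.3, numpy 2.4.6). The number of arrays limits the precision, and p-values measure the spread between the 2 isolates only.

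The 10 genes and the lists were chosen with earlier results of these data known. Named were the 10 genes and up to 3 genes in each direction per pathway list. The latter had the largest differences shared by both isolates among genes above the background level. The 2 genes of most similar pattern to each of 3 members were also named. Up to 4 markers per list were planned. All 7 were named for GREL cells and simple epithelium and for fibroblasts and stroma, and fewer or none for the other lists. Other genes are said to be chosen after their values were seen, or complete a family or receptor pair and are dim. Alternatives were leaving out dim probe sets, eBayes with an intensity trend or a robust prior, another quantile normalization, median centring, the methods' test, other fold thresholds, other rules for several probe sets, and leaving out an isolate. A level at the 90th percentile was added after seeing the data.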

Additional observations from a re-analysis of the deposited data

How the results depend on the processing

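No paired analysis was possible because the label of the fibroblast culture carries no replicate number and there is 1 such array. Limma called 0 probe sets in each direction under every setting tried except the robust prior, which called 571 higher and 618 lower. The methods' test also called 0 (186 higher and 208 lower unadjusted). That test could use only the 20503 probe sets with unequal values in the isolates, which leaves out ACKR3 and CXCL5. Its counts are therefore of a smaller set than the 24016 of the main fit. Without either isolate no residual degrees of freedom remain, so limma gave no value. Past 3-fold in both isolates were 379 probe sets higher and 419 lower. These counts were 1180 and 1035 at 2-fold, 193 and 240 at 4-fold, 43 and 117 where the higher group lay above the background level, and 486 to 740 and 485 to 735 with 1 isolate left out, the higher counts being without isolate 1.

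Of the 10 genes, 3 were over 3-fold higher and 2 over 3-fold lower. The 3 higher became 2 above the background level, 2 above the 90th percentile and 2 with the mean over the probe sets of a gene, CCL2 being lost each time. The 2 lower became 1 at 4-fold (IL6), 0 above the background level and 1 above the 90th percentile, a level added after seeing the data. With 1 isolate left out the counts were 3 to 4 higher and 2 to 3 lower, CXCL2 and CXCL16 being added without isolate 1. The 4 other pathway genes that were higher became 2 at 4-fold, 1 above the background level and 2 with quantile normalization applied again. The 11 that were lower became 18 at 2-fold, 5 at 4-fold and 5 above the background level. With 1 isolate left out they were 4 to 5 higher and 12 to 13 lower. Another normalization, centring or probe set gave 24 recomputed differences of the 10 genes, of which 7 moved by more than the SD of the isolates and 0 of those shared by both isolates turned direction. ACKR3 and CXCL5 are among the moved. Their SD is 0 at rounded values, so any shift counts, and theirs were at most from 2.70 to 2.63 and from 0.50 to 0.45. CXCL8, on which the isolates do not share a direction, was at -0.10 without isolate 1 and 1.00 without isolate 2. With the mean over its 2 probe sets CCL2 differed by 1.60.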

Other observations

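Among 18 measured genes often made together with chemokines and IL6 in inflamed tissue, 4 were over 3-fold lower in both GREL isolates than in the fibroblasts and 1 was over 3-fold higher, against 2.38% of all genes in each direction. The median difference was -0.32. Nothing is read from these shares, since the list was chosen with earlier results of these data known. VCAM1 and ICAM1, adhesion molecules that bind leukocytes, were among the 4. VCAM1 read 4.6 and 5.3 in the isolates, against 8.4 in the fibroblasts (difference -3.45, standard error 0.49, adjusted p = 0.208 in limma). ICAM1, chosen after its values were seen, read 4.2 and 3.7, against 7.0. PTGS2, the inducible enzyme of prostaglandin synthesis, also chosen after its values were seen, read 3.1 and 2.9, against 5.0. These PTGS2 values were below the lower level in every culture. Its dimmer probe sets lay at 0.8 to 1.2 in the isolates, against 1.4 and 1.5, which is lower by under 2-fold. VEGFA, an angiogenic growth factor, read 6.9 in isolate 1 and 5.1 in isolate 2, against 8.7, so the isolates differed as they did in IL6. Its dimmer probe set read 3.8 and 2.7, against 5.1, which is under 3-fold in isolate 1. SELP, an adhesion molecule of platelets and endothelium chosen after its values were seen, was the gene that was higher, at 3.9 and 3.8, against 1.3. SOD2, a mitochondrial superoxide dismutase, read 7.9 and 7.7, against 9.1, and CCN2, a matricellular protein, 11.4 in both isolates, against 10.8.

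Of 11 genes of AP-1, hypoxia and stress inputs, FOS was the only one over 3-fold apart in both isolates, at 6.8 and 7.1 in GREL cells, against 8.7 in fibroblasts. EGR1, another early response gene, read 7.6 and 8.2, against 9.4, and HIF1A, the hypoxia factor, 8.8 and 8.4, against 10.1. A dim EGR1 probe set was nearly level, at 2.4 and 2.5, against 2.5. Among 13 genes of receptor trafficking and ligand processing, MMP2, a protease that can cut CXCL12, was the only one over 3-fold apart. It read 8.0 and 7.7 in the isolates, against 10.1 in the fibroblasts (difference -2.25, standard error 0.21, adjusted p = 0.191 in limma). MIF, a cytokine that also binds CXCR4 and ACKR3, read 7.6 and 7.5, against 8.6. GNAI2 and GNAI3, G protein subunits used by chemokine receptors, read 8.6 and 8.9, against 9.2, and 7.8 and 8.3, against 7.3.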
